A study of Mus musculus with 12 samples.

Results

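The MEF2 transcription factor family was described by the H3K27ac regions that overlap *Mef2a*, *Mef2b*, *Mef2c* or *Mef2d*, with each gene body extended by 5 kb on each side in the GENCODE M21 annotation of GRCm38. This rule found 33 of the 53754 regions of control cardiomyocytes (CMs) and 29 of the 45521 regions of RIP140-null (KO) CMs. The *Mef2a* window held 13 control and 15 KO regions, the *Mef2b* window 3 and 2, the *Mef2c* window 13 and 9, and the *Mef2d* window 4 and 3. The rule used position only, and no region was chosen by its presence in a genotype.

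MEF2 proteins are MADS-box transcription factors that bind an A/T-rich DNA element, as homodimers or heterodimers, and activate genes of muscle differentiation, contraction and energy metabolism. In CMs, they are held in check by class IIa histone deacetylases. Kinases that respond to calcium or stress drive these deacetylases out of the nucleus, and MEF2 proteins then recruit histone acetyltransferases such as p300. H3K27ac, acetylated lysine 27 of histone H3, is the mark that such acetyltransferases deposit at active promoters and enhancers. RIP140, the product of *Nrip1*, is a corepressor that recruits deacetylases to nuclear receptors.

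CMs came from hearts of mice aged 10 to 12 weeks with the genotype Nrip1 f/f. Both groups carried the floxed alleles. RIP140-null CMs were from Cre+ mice (csNrip1-/-), in which Cre is driven by the Nkx2.5 promoter, active from early heart development, and control CMs from Cre- littermates. CUT&RUN, in which an antibody tethers a nuclease that releases the DNA around the mark for sequencing, was run on 200000 cells per experiment, with 3 H3K27ac and 3 IgG replicates in each genotype. Regions were called in each H3K27ac replicate against IgG, and those found in at least 2 of 3 replicates were deposited as 1 list per genotype. The lists give positions without signal or replicate values, so depth and replicate error are unknown and no test between the genotypes could be made. All differences below are descriptions, set beside the same quantity over all regions or genes.

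At *Nrip1* itself, control regions covered 2.9 kb and KO regions 0.0 kb of the 7616 bp last exon (chromosome 16, 76287400 to 76295015), which lies between the loxP sites of the floxed allele. Over the rest of the gene they covered 50.9 and 48.5 kb. All 10 CM marker genes examined were covered in both genotypes, 9 of them within 1.5-fold, and *Mybpc3* over 4.67 kb in control and 9.21 kb in RIP140-null CMs. Of 7 fibroblast markers, 1 was covered in both genotypes, 2 in control CMs only and 4 in neither. Of all 55413 annotated genes, 21026 were covered in both, 2032 in control CMs only and 1690 in RIP140-null CMs only. Of 6 macrophage markers, 4 were covered in neither (*Csf1r*, *Ptprc*, *Adgre1* and *Lyz2*) and 2 in both, namely *Cd68*, over 1.17 kb in control and 4.13 kb in RIP140-null CMs, and *Cx3cr1*, whose window also holds the myocyte gene *Xirp1*. Of 5 smooth muscle and pericyte markers, 2 were covered in both, 1 in RIP140-null CMs only (*Kcnj8*) and 2 in neither (*Pdgfrb* and *Rgs5*). *Abcc9* was covered over 15.36 and 25.13 kb, and *Myh11* over 7.53 and 7.58 kb. Which cells the cover at *Cd68*, *Kcnj8*, *Abcc9* and *Myh11* came from was not tested, nor whether it belongs to neighboring genes. All 7 endothelial markers were covered in both, over 125.7 kb in control and 137.2 kb in RIP140-null CMs. *Mef2c* and *Mef2a* are also active in endothelial cells. The part of such cells in the regions below was not tested.

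The 4 promoter sequences that follow were chosen because the start of *Mef2a* carries a match to the MEF2 element, the start of *Mef2b* was bare, the first start of *Mef2c* lay in a narrow region in control CMs and a wider one in RIP140-null CMs and the start of *Mef2d* lay deep inside a wide region in both. Each run, from RefSeq on GRCm38.p6, gives 250 bases before the start in lower case and the first 30 transcribed bases in capitals.
Mef2a: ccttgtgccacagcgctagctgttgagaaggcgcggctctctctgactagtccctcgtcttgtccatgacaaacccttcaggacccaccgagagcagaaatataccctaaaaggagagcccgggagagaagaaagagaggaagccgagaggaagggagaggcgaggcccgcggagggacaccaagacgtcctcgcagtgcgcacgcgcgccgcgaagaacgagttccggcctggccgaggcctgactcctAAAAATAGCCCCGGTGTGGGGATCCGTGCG
Mef2b: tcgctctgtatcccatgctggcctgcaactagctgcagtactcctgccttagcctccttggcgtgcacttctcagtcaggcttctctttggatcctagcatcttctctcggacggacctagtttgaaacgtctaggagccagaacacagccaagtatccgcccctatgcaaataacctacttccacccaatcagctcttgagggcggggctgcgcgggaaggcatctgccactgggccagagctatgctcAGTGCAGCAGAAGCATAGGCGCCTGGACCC
Mef2c: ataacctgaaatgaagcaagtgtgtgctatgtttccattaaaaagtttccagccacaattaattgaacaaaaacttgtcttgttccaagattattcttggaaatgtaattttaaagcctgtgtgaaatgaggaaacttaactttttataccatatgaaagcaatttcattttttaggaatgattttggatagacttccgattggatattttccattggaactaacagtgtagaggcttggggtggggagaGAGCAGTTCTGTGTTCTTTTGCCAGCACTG
Mef2d: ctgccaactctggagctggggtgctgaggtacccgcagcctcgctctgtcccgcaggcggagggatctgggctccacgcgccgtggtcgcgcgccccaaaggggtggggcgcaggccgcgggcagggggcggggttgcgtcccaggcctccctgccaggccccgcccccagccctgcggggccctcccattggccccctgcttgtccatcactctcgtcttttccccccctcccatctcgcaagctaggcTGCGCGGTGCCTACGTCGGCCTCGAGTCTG

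These runs lie at chr7:67372829-67373108 on the minus strand, chr8:70152511-70152790, chr13:83503784-83504063 and chr3:88142122-88142401, the last 3 on the plus strand. Over the full table entries of 300 bases, the promoters of *Mef2d* and *Mef2a* were rich in G and C, at 72.0% and 62.3%, with 24 and 27 CpG dinucleotides. That of *Mef2b* was at 57.0% with 11, and the first promoter of *Mef2c* was at 35.7% with 1. The median over 32851 RefSeq promoters was 52.7%. RefSeq lists 6 promoters for the family, 3 of them at *Mef2c*, where the second and the third start lie 19.6 and 69.6 kb inside the gene. Regions of both genotypes covered the whole 300 bases of 5 of the 6 promoters, all but that of *Mef2b*. Among all RefSeq promoters, 38.0% were touched by a control region and 40.0% by a KO region.

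The MEF2 consensus was read as CTA, then 4 bases that are each A or T, then TAG, which is the same element on either strand. In the windows of the 4 genes and the regions reaching out of them there were 19 matches, of which 15 lay in regions of both genotypes, 2 in KO regions only, 2 in neither and 0 in control regions only. *Mef2c* had 12, *Mef2a* 5, *Mef2d* 2 and *Mef2b* 0. The matches chosen for printing are both of those that only KO regions covered, at *Mef2a* and *Mef2c*, a pair inside the widest control region of *Mef2c*, and both of those at *Mef2d*. Each is given in the direction of transcription with the consensus in capitals.
Mef2a at 24.2 kb: cagtttgttgCTAATAATAGtgacccacac
Mef2c at 49.7 kb: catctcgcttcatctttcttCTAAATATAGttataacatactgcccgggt
Mef2c pair at 99.9 and 100.0 kb: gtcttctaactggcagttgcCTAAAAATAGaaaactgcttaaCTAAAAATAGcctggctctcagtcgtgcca
Mef2d at -1.6 kb: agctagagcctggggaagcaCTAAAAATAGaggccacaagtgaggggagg
Mef2d at 7.8 kb: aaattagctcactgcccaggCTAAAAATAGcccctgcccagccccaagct

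In order, these sequences lie at chr7:67348605-67348634 on the minus strand and, on the plus strand, at chr13:83553727-83553776, chr13:83603955-83604026, chr3:88140773-88140822 and chr3:88150202-88150251. The first lies within an exon of a retained-intron transcript of *Mef2a*, the *Mef2c* matches and the second *Mef2d* match in introns, and the other *Mef2d* match upstream of the gene. The pair in *Mef2c* stands 22 bp apart from start to start. The *Mef2a* promoter match begins 2 bp before the start and runs into the transcript, so that its last letters are the first capitals of the *Mef2a* promoter above. The core CTAAAAATAG, with its reverse complement, was the most frequent of 8 forms. It made up 6 of the 19 matches, namely the *Mef2a* promoter match, 3 in *Mef2c* (the pair and 1 at 145.4 kb) and both at *Mef2d*, and all 6 lay in regions of both genotypes. Of all 32851 promoters, 0.557% held the MEF2 consensus.

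Control regions at the MEF2 genes held 7.16 matches per 100 kb against 3.79 over the whole control list, and KO regions held 7.38 against 3.61. Among the genes, the control and KO values were 7.88 and 8.65 per 100 kb at *Mef2c*, 7.66 and 7.64 at *Mef2a*, and 5.16 and 4.51 at *Mef2d*. The element is rich in A and T. Control regions were 37.2% G or C at *Mef2c*, 40.1% at *Mef2a* and 51.0% at *Mef2d*, against 45.2% over the control list. The part of base composition in these frequencies was not tested. At least 1 match lay in 8 of 33 control regions and 8 of 29 KO regions, against 5167 of all 53754 control regions (9.61%) and 4992 of all 45521 KO regions. The control regions with a match measured 5983 bp or more and the KO regions 1078 bp or more, and 0 control and 0 KO regions had a match in their central 200 bp.

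Across the 4 windows, which span 402.2 kb, control regions covered 201.2 kb (50.0%) and KO regions 220.2 kb (54.7%). Both genotypes covered the same 180.8 kb, which was 89.9% of the control length and 82.1% of the KO length, against 74.1% and 72.7% over the whole lists. The log2 ratio of these summed lengths, KO over control, was 0.13. Over the whole lists, the summed lengths were 151.3 Mb in control and 154.2 Mb in RIP140-null CMs. Taken gene by gene, the median log2 ratio was 0.07 over the 21026 genes covered in both lists. *Mef2a* had the highest ratio of the family, at 0.32, followed by *Mef2d* at 0.21. *Mef2c* stood at 0.02, or -0.01 with KO lengths scaled by total covered length. *Mef2b* stood at -0.23, a sign that turned under 4 of 5 alternative windows, filters or scalings. None of the 4 genes passed 1.5-fold in either direction, whereas 16.3% of the 21026 genes were over 1.5-fold more covered in RIP140-null CMs and 10.2% over 1.5-fold less covered.

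**Figure D1:**
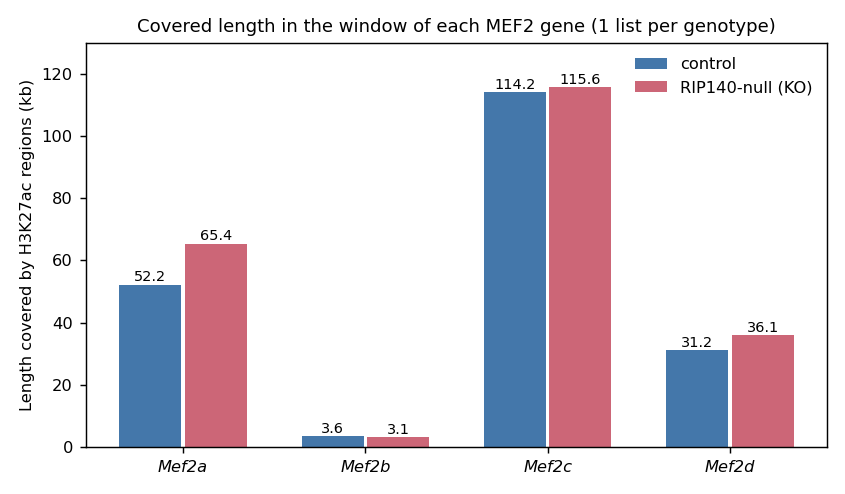
Bars give the length in kb covered by H3K27ac regions within the window of each MEF2 gene, for control (blue) and RIP140-null (red) CMs, with 1 list per genotype and so no error bars. *Mef2c* carried the longest cover in both genotypes, 114.2 and 115.6 kb, and *Mef2a* the largest gain, from 52.2 to 65.4 kb.

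**Figure D2:**
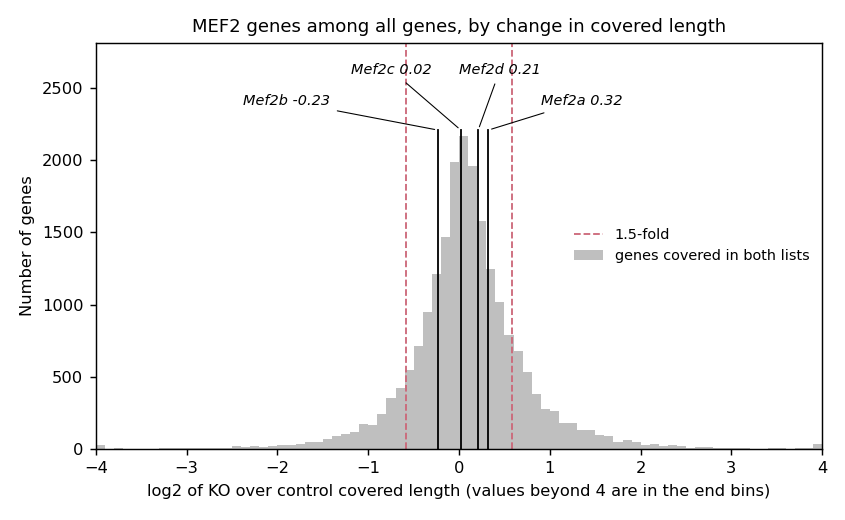
Gray bars count the 21026 genes covered in both lists by the log2 ratio of covered length, KO over control, in bins of 0.1. Dashed lines are at 1.5-fold. Black lines mark the MEF2 genes, which sat between -0.23 and 0.32, inside the dashed lines.

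Regions present in 1 genotype only were counted next. Of the control regions, 6 of 33 (18.2%, 95% Wilson interval 8.61% to 34.4%) overlapped no KO region, against 29.5% of all control regions. Of the KO regions, 7 of 29 (24.1%, interval 12.2% to 42.1%) overlapped no control region, against 21.5% of all KO regions. Both intervals contain the share of the whole list. They cover counting error only, and neighboring regions are not independent. With a reciprocal overlap of 50% required of a shared region, the counts were 20 and 16, against 51.2% and 42.4% of all regions. At 1 bp of overlap, *Mef2a* held 6 of the 7 KO-only regions and 3 of the 6 control-only regions. *Mef2c* held 1 KO-only and 2 control-only regions, *Mef2b* held 1 control-only region and *Mef2d* had no region of 1 genotype only.

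**Figure D3:**
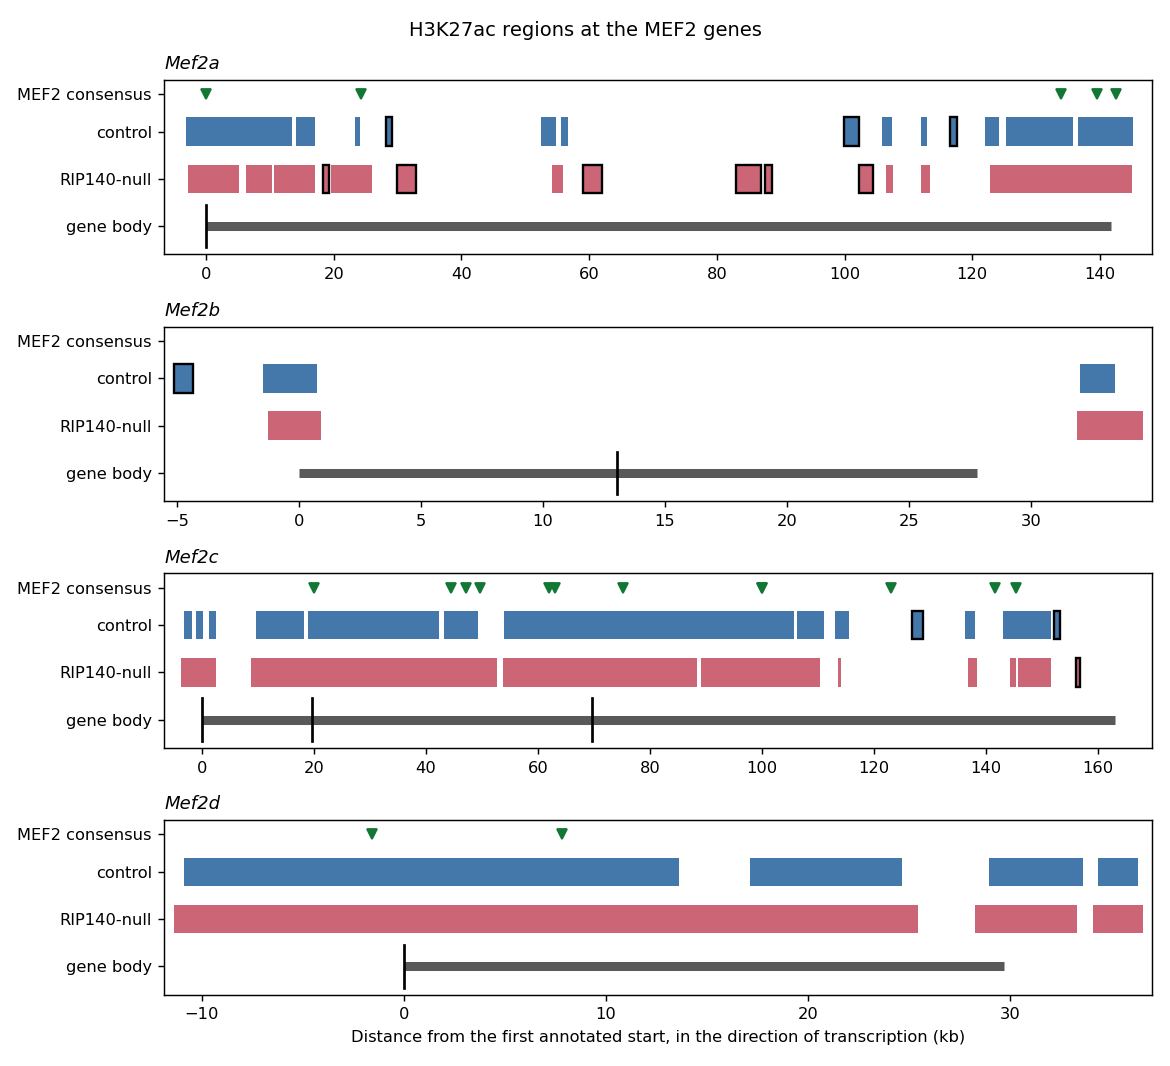
Regions of control (blue) and RIP140-null (red) CMs at each MEF2 gene are drawn to scale by distance in kb from the first annotated start, in the direction of transcription. The gray bar is the gene body, black ticks are RefSeq starts, triangles are MEF2 consensus matches and black outlines mark the 6 control-only and 7 KO-only regions. *Mef2a* gained cover mostly between the regions over its start and those over its end, and *Mef2b* had cover at its edges. *Mef2c* was covered without a gap from 53.9 to 88.4 kb in both genotypes, and *Mef2d* was covered over 78.6% of its window in control and 90.9% in RIP140-null CMs.

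*Mef2c* encodes the member required for formation of the right ventricle and outflow tract in the embryo. It lies on chromosome 13 (ENSMUSG00000005583, 83504034 to 83667080, plus strand). Control regions covered 114.2 kb (66.0%) and KO regions 115.6 kb (66.8%) of its window, where the median protein-coding window was covered over 5.1% and 5.6%. By share covered, 0.994% of protein-coding genes stood above *Mef2c* in control CMs and 1.34% in RIP140-null CMs. Among the 2809 protein-coding genes with windows of at least 100 kb, it ranked 21 and 26. Of the length covered in control CMs, 92.2% was also covered in RIP140-null CMs.

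The even total at *Mef2c* joined more cover near its starts to less cover toward its end. In the 5.0 kb before the first start, control regions covered 2.4 kb and KO regions 3.7 kb. From the first to the second start, they covered 54.4% and 67.8%. Between the second and the third, the shares were 88.9% and 97.9%. From the third start to the end of the window, the order turned, with 57.6% in control and 50.4% in RIP140-null CMs, or 56.7 and 49.6 kb.

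At the first start of *Mef2c*, whose A/T-rich promoter is printed above, the control list held 3 narrow regions of 1320, 1225 and 1261 bp. The KO list held a single region of 6169 bp that overlapped all 3. The control region over the start reached 1093 bp upstream and 131 bp downstream of it, and the KO region 3749 and 2419 bp. The covered lengths at this locus were 3.81 and 6.17 kb, a log2 ratio of 0.70. The gaps between the control regions, which the KO region filled, measured 751 and 1110 bp.

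The second start of *Mef2c* lay in a 23463 bp control region, which reached 713 bp upstream of it, and in a 43978 bp KO region (chromosome 13, 83512781 to 83556758), the 24th widest of 45521. This KO region spanned 3 control regions of 8565, 23463 and 5983 bp, separated by gaps of 658 and 900 bp, and reached beyond the last of them over the MEF2 match at 49.7 kb. The third start lay in the widest control region of the family (chromosome 13, 83557958 to 83609689). At 51732 bp it was the 7th widest of the control list, whose widest region measured 90338 bp. In RIP140-null CMs the same stretch was held by regions of 34677 and 21196 bp, parted by a gap of 778 bp that lies 88.4 to 89.2 kb from the first start. The MEF2 pair lay in the second of these. The second KO region also ran over a control gap of 685 bp at 105.7 to 106.3 kb. Around the second start, the covered lengths were 38.01 kb in control and 43.98 kb in RIP140-null CMs. Around the third, from 53.8 to 111.0 kb, they were 56.44 and 55.87 kb.

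Toward the end of *Mef2c*, control-only regions of 1956 bp at 126.8 kb and 1072 bp at 152.2 kb had no KO counterpart, and a KO-only region of 675 bp lay at 156.1 kb. An intronic control region of 2617 bp at 113.0 kb overlapped a KO region of 551 bp. A region of 8516 bp at 143.1 kb was matched by KO regions of 1078 and 5747 bp. Of the 12 MEF2 matches in the window, 9 lay in control regions and 10 in KO regions, and both uncovered ones, at 123.1 and 141.6 kb, lay in this last part. The 7 endothelial markers had a median log2 ratio of 0.08. Of these, 5 were within 1.5-fold, from -0.06 at *Tek* to 0.56 at *Emcn*, which was covered over 7.81 and 11.48 kb. *Cdh5* was covered over 5.08 kb in control and 1.74 kb in RIP140-null CMs and *Tie1* over 2.50 and 1.65 kb. These 2 were over 1.5-fold less covered, against 10.2% of all genes covered in both lists, and none was over 1.5-fold more covered. At the 7 markers, 17 of 52 control regions were control-only and 5 of 40 KO regions KO-only, against 29.5% and 21.5% of all regions. The part of endothelial cells in the regions of *Mef2c* was not tested.

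*Mef2a* encodes the main MEF2 protein of the adult heart, with a role in mitochondrial content and the conduction system. It lies on chromosome 7 (ENSMUSG00000030557, 67231163 to 67372858, minus strand). Control regions covered 52.2 kb (34.4%) and KO regions 65.4 kb (43.1%) of its window, a 1.25-fold ratio above that of 71.3% of all genes covered in both lists. Both genotypes covered 41.9 kb, which was 80.2% of the control and 64.0% of the KO length. Of the 4 genes, it was the one with the largest length covered in RIP140-null CMs only, and also with the largest length covered in control CMs only.

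The gain at *Mef2a* lay inside the gene, away from the domains over its start and its end. With the gene body cut into 5 equal parts in the direction of transcription, the first was covered over 61.5% in control and 81.1% in RIP140-null CMs and the second over 14.8% and 16.2%. The third was covered over 0.1% and 17.9%, the fourth over 5.0 and 7.7 kb (17.7% in control CMs), and the last over 66.7% and 66.8%. The largest single difference in the first part was at 19.6 to 26.0 kb, where a KO region of 6427 bp overlapped a control region of 696 bp, a log2 ratio of 3.21. The KO region took in the MEF2 match at 24.2 kb printed above, which the control region stopped short of.

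The 6 KO-only regions of *Mef2a* measured 913, 2938, 3070, 3822, 1132 and 2153 bp from the start of the gene on. Those at 83.0 to 86.8 kb and 87.6 to 88.7 kb lay 13003 and 11140 bp from the nearest control region. The cover of the middle part of the gene came from those at 59.0 and 83.0 kb. The others were closer to a control region, and that at 102.3 kb stood 60 bp from a control-only region of 2412 bp, which holds the start of Gm44667. The other control-only regions measured 913 bp, at 28.2 kb, and 1094 bp, at 116.5 kb. At 52.5 to 56.7 kb the order was the other way, with 3.42 kb covered in control and 1.66 kb in RIP140-null CMs.

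The start of *Mef2a* was held in control CMs by a 16695 bp region, which also holds the start of Gm44668, and a 3086 bp region, and in RIP140-null CMs by 3 regions of 8069, 3958 and 6478 bp. The covered lengths were 19.78 and 18.50 kb. At the end of the gene, control regions of 10469 and 8659 bp with a gap of 760 bp faced a single KO region of 19683 bp. Here the lengths were 19.13 and 19.68 kb, and 3 of the 5 MEF2 matches of the gene lay in this stretch in both genotypes. Over the family as a whole, 9 of 29 gaps between neighboring control regions were covered whole by KO regions, with 9.6 kb in all, against 9.79% of such gaps over the whole list. Of 25 gaps between KO regions, 4 were covered by control regions, with 2.7 kb, against 6.79%. The shares over the whole lists count gaps of any length, including long ones between genes, and were not matched for gap length. The control gaps filled at the MEF2 genes measured 501 to 3496 bp, so the shares are not a like comparison. Bridging of control gaps by KO regions was the more frequent over the whole lists too, where KO regions were fewer and wider, with a median width of 2291 bp against 1846 bp in control CMs. Regions in each list are unions over replicates, so a gap or a bridge can come from the regions of 1 replicate.

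*Mef2d* encodes the member through which pathological growth signals act on the adult heart. It lies on chromosome 3 (ENSMUSG00000001419, 88142372 to 88172086, plus strand). Control regions covered 31.2 kb (78.6%) and KO regions 36.1 kb (90.9%) of its window, and only 0.337% and 0.160% of protein-coding genes were covered over a larger share. Nearly all of the control length, 99.1%, was also covered in RIP140-null CMs. The largest part of the difference was a gap of 3496 bp at 13.6 to 17.1 kb, between control regions of 24517 and 7547 bp. A KO region of 36832 bp (chromosome 3, 88130997 to 88167828) spanned it and was the 51st widest of its list. The middle part of the gene body was accordingly covered over 41.2% and 100.0%, and the last part over 27.6% and 52.6%.

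The wide *Mef2d* region began 10.9 kb upstream of the start in control and 11.4 kb upstream in RIP140-null CMs, and both MEF2 matches lay in it in both genotypes. The other regions of the window, at the end of the gene and downstream at the start of 1700113A16Rik, measured 4677 and 2005 bp in control and 5076 and 2445 bp in RIP140-null CMs. All were shared. In order of share covered, *Mef2d* came first in both genotypes, followed by *Mef2c*, *Mef2a* and *Mef2b*. With 1 value per genotype, no spread could be put on the steps of this order.

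*Mef2b* encodes the most divergent member, known mainly from B lymphocytes. It lies on chromosome 8 (ENSMUSG00000079033, 70139711 to 70167488, plus strand). Regions covered 3.6 kb (9.5%) in control and 3.1 kb (8.1%) in RIP140-null CMs, and none of this belonged to the RefSeq start of *Mef2b*. That start, printed above, lies 13.1 kb inside the annotated gene, and the nearest region was 12313 bp away in control and 12164 bp away in RIP140-null CMs. A region at the first annotated start of the gene, 2201 bp in control and 2174 bp in RIP140-null CMs, also holds the starts of *Borcs8* and *Rfxank*, so the cover cannot be assigned to *Mef2b*. Downstream, a region at the start of *Tmem161a* measured 1415 and 2708 bp, and upstream a control-only region measured 762 bp. The parts of the gene body after the first held 0.0% in both genotypes.

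**Figure D4:**
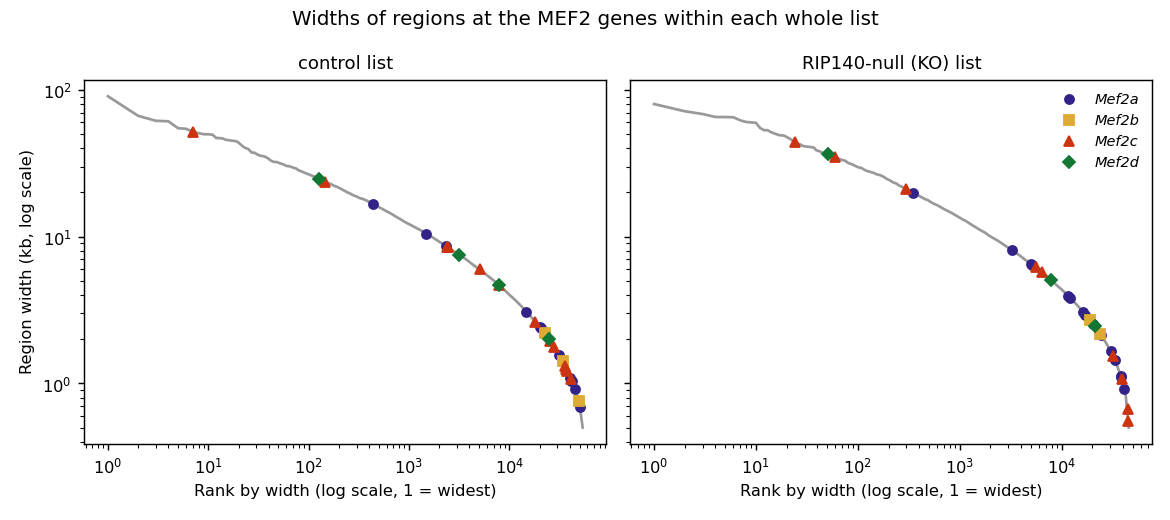
The gray line gives region width in kb by rank within a list, on log scales, and symbols mark the regions at the MEF2 genes in control (left) and RIP140-null (right) CMs. *Mef2c* regions of 51.73 kb (control, rank 7) and 43.98 kb (KO, rank 24) stand near the top, and *Mef2d* rises from 24.52 kb (rank 128) to 36.83 kb (rank 51).

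The ERR consensus TCAAGGTCA, the element of the estrogen-related receptors, was searched in the same windows because RIP140 is known to repress these receptors. This search was added after the data had been seen. There were 18 matches on either strand, of which 5 lay in regions of both genotypes, 2 in control regions only, 2 in KO regions only and 9 in neither. The density was 3.34 per 100 kb in control and 3.04 in KO regions at the MEF2 genes, against 3.27 and 3.36 over the whole lists. At *Mef2a*, 1 match lay at -2.4 kb in both genotypes, those at 5.5 and 100.6 kb in control regions only and that at 84.8 kb in a KO-only region. At *Mef2d*, the match at 14.9 kb lay in the stretch that the KO region bridged. None of the 7 matches at *Mef2b* lay wholly within a region.

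Regulators and partners of MEF2 proteins were examined as a list of 30 genes, of which 29 were covered in both genotypes. Their median log2 ratio was 0.04, with 1 gene over 1.5-fold more covered in RIP140-null CMs and 2 over 1.5-fold less covered, against 16.3% and 10.2% of all genes. The gene with more cover was *Prkd2*, a protein kinase D that phosphorylates class IIa deacetylases, with 2.75 kb in control and 8.15 kb in RIP140-null CMs. The genes with less were *Ppp3ca* and *Map2k6*. *Ppp3ca*, which encodes 1 of the catalytic subunits of the phosphatase calcineurin, had 77.73 and 48.02 kb. *Map2k6*, a kinase that activates p38, had 27.83 and 18.01 kb. *Mapk7*, which encodes the MEF2 kinase ERK5, was covered over 1.85 kb in RIP140-null CMs and had no region in control CMs. Of all 55413 annotated genes, 1690 were covered in RIP140-null CMs only and 2032 in control CMs only. No gene of the list lacked regions in both genotypes.

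By role, none of the 4 class IIa deacetylase genes passed 1.5-fold, and their log2 ratios ran from 0.04 at *Hdac9* to 0.29 at *Hdac7*. Of the 4 kinases that act on them, 1 passed it (*Prkd2*, more covered). Among the MAP kinase genes, 1 of the 4 covered in both genotypes passed (*Map2k6*, less covered), and in the calcineurin arm 1 of 5 (*Ppp3ca*, less covered). Of all genes covered in both lists, 16.3% were over 1.5-fold more covered and 10.2% over 1.5-fold less covered. With so few genes per role, these counts cannot set a role apart. None of the 12 coactivator and partner genes passed. Their covered shares ran from 9.2% in control and 6.7% in RIP140-null CMs at *Ep300*, which encodes the acetyltransferase p300, to 100.0% in both at *Hand2*, a transcription factor gene of the heart. The shares were 10.0% and 12.0% at *Crebbp*, 12.9% and 9.7% at *Nfatc3*, 11.5% and 12.1% at *Nfatc4*, 67.9% and 79.2% at *Gata4* and 85.7% and 84.5% at *Nkx2-5*. Over the list, 70 of 259 control regions were control-only and 40 of 215 KO regions KO-only, against 29.5% and 21.5% of all regions. At *Ppp3ca*, beside the same shares of all regions, 13 of 24 control regions had no KO counterpart and 3 of 18 KO regions no control counterpart.

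The list of 19 genes known as direct MEF2 targets in striated muscle or other cells was covered in both genotypes at every gene. Its median log2 ratio was 0.15. *Klf2*, a transcription factor gene whose promoter element is driven by MEF2, was covered over 3.05 kb in control and 7.82 kb in RIP140-null CMs, a log2 ratio of 1.36. The part of endothelial cells in the cover of *Klf2* was not tested. *Hrc*, which encodes a calcium-binding protein of the sarcoplasmic reticulum, was covered over 4.07 and 7.75 kb, a log2 ratio of 0.93. *Klf2* and *Hrc* were the 2 of 19 genes over 1.5-fold more covered, against 16.3% of all genes. None was over 1.5-fold less covered, and the lowest ratio was -0.25, at *Myh6*. Of the regions, 25 of 114 control and 19 of 100 KO regions were present in 1 genotype only, against 29.5% and 21.5% of all regions.

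**Figure D5:**
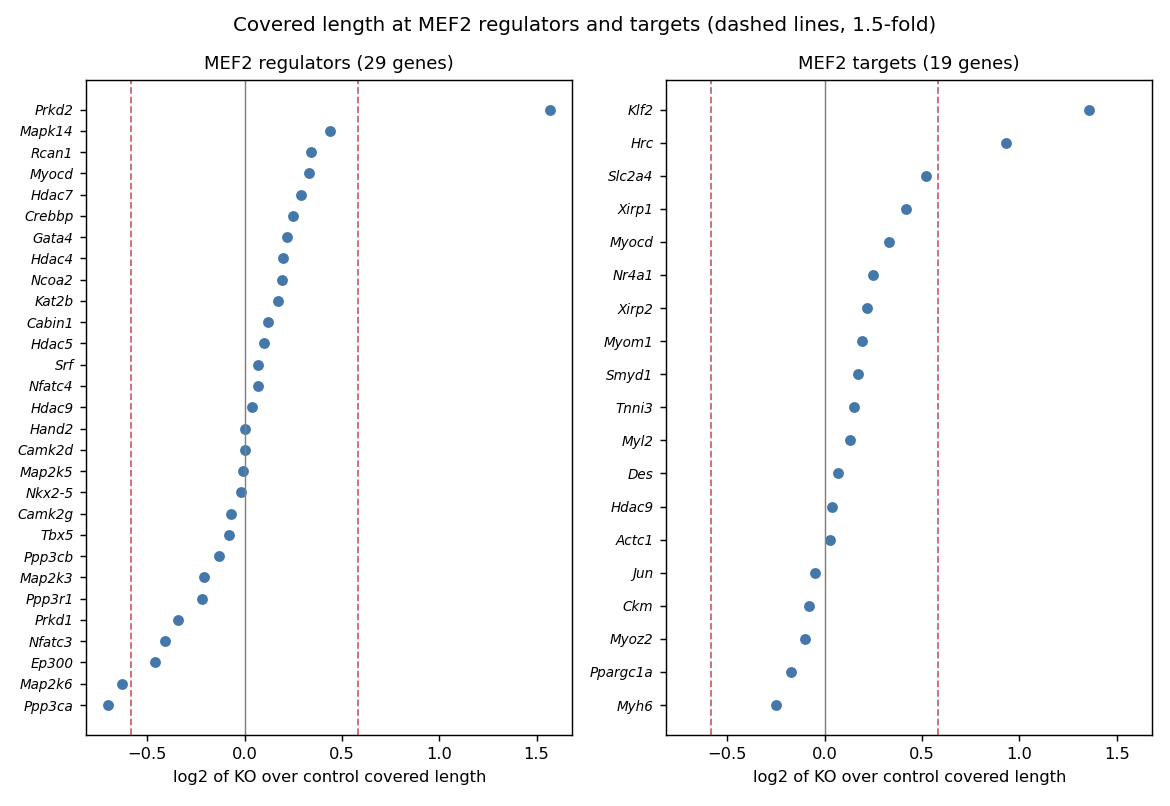
Points give the log2 ratio of covered length, KO over control, for 29 MEF2 regulators and partners (left) and 19 MEF2 targets (right), sorted by value, with dashed lines at 1.5-fold. *Prkd2*, *Klf2* and *Hrc* lie above the upper line and *Ppp3ca* and *Map2k6* below the lower one.

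Matches to the MEF2 consensus lay in regions of 13 of the 19 targets. They also lay in regions of 19 of the 30 regulators, 4 of the 10 CM markers and 4 of the 7 endothelial markers. The share over all genes was not counted, so the target count does not set the targets apart. *Hdac9*, whose product represses MEF2 and whose gene is itself a target, had the most, with 14 in control and 9 in KO regions. Its window of 879516 bp was covered over 129.09 kb (14.7%) in control and 133.17 kb (15.1%) in RIP140-null CMs. *Ppargc1a*, the gene of the coactivator PGC-1α, had 5 and 4, and *Nr4a1*, an early response gene, had 4 and 4. *Myom1*, *Smyd1* and *Myoz2*, which encode proteins of the sarcomere or of its assembly, were tied at 3 in each genotype. *Hdac9* and *Myocd* stand in both the regulator list and the target list. A match is a run of letters within a region and does not show that a MEF2 protein was bound there.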

How the data were processed

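H3K27ac CUT&RUN was analysed in CMs of 2 genotypes. Per the methods, Bowtie2 2.4.2 was the aligner (GRCm38) and SAMtools cleared duplicates. HOMER 4.11.1 (findPeaks, histone style) then called regions against IgG and combined the 3 replicates, retaining what 2 or more shared. The lists the authors deposited give start, end, name and a score, which is 1 in every row and was not used. Starts were read as 0-based, and all regions lay within the GRCm38 chromosomes. Sequences other than chromosomes 1 to 19, X and Y were dropped (21 control and 14 KO regions).

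A region was shared if it overlapped the other list by 1 bp. Covered length was summed within gene windows, and 1.5-fold marked a larger change. The genes named are the 4 members, regulator and target genes past 1.5-fold (up to 5 each way) or with no region, the 5 targets with most MEF2 matches, with ties, and neighbors whose start lies in a region. Genes named for their covered share or median place, and cell type markers, were chosen after their values were seen. Members and lists were chosen with earlier results of these data known. As a check of the code only, 1507 of 1507 planted regions of 1 list only were found on simulated lists without noise or replicates. This gives no error rate for the deposited lists. Python 3.11.15, numpy 2.4.6, scipy 1.17.1, pysam 0.24.0, samtools 1.23.1 and matplotlib 3.10.9 were used.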

Additional observations from a re-analysis of the deposited data

How the results depend on the processing

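The log2 ratio of the 4 genes together ran from 0.10 to 0.14 over 5 alternatives (no extension or 50 kb, regions of at least 1000 bp, equal numbers of the widest regions, KO length scaled by total). *Mef2a* (0.23 to 0.38) and *Mef2d* (0.16 to 0.30) kept their sign in all 5, *Mef2c* ran from -0.01 to 0.02, and *Mef2b* was at -0.26 when scaled but at 0.27, 0.31, 0.06 and 0.06 under the others. Counts of regions in 1 genotype only depended on the definition. Requiring reciprocal 50% overlap gave 20 control-only and 16 KO-only regions, against 51.2% and 42.4% of all regions. A gap of up to 1000 bp left 3 of 33 control regions control-only, against 25.9% of all control regions. Windows of 50 kb, with 52 control regions, held 12, against 29.5%. Less covered targets numbered 1 without extension, against 11.9% of all genes covered in both lists. Less covered regulators numbered 1 with 50 kb windows, 1 with regions of at least 1000 bp and 1 with equal numbers of regions. The shares of all such genes were 8.66%, 8.81% and 9.05%. A relaxed consensus, with either pyrimidine first and either purine last, was found in 18 control and 16 KO regions, the central 200 bp in 0 and 0, and the central 1000 bp in 0 and 1. The other 51 recomputed values stayed within 1.5 times. No paired analysis was possible because the lists are merged over replicates and carry no replicate numbers, and no replicate could be left out for the same reason.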
